A study of Mus musculus with 6 samples.

Results

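The cytosolic ribosomal protein genes were followed in colonic epithelial cells of mice with and without Nr3c1, the gene of the glucocorticoid receptor. Members were the genes whose symbol is Rpl or Rps followed by a digit, together with Rplp0, Rplp1, Rplp2 and Rpsa. Of 104 matching symbols, 5 pseudogenes and 10 genes of the Rps6k kinase family were left out, and 89 members of the 23725 genes in the table remained. To be tested, a gene had to reach 10 normalized reads in 3 or more of the 6 libraries, which 84 members and 12837 genes in all did. Of these 84, 35 belong by name to the small and 49 to the large subunit, and 3 of them carry such a name without being core ribosomal proteins or their close paralogs (Rps19bp1, Rps23rg1 and Rpl32l).

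The ribosome translates mRNA into protein, and each copy holds 1 of each of nearly all of its proteins. In vertebrates most mRNAs of these proteins begin with a cytosine followed by a run of pyrimidines, the terminal oligopyrimidine start, through which growth signalling by mTOR controls their translation. In the colon, cells at the crypt base divide and make ribosomes at a high rate, and the cells above them differentiate.

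The wild-type group held 3 libraries from C57BL/6J mice. The knockout group held 3 libraries, on the same background, of the genotype B6-Cg-Nr3c1-Vil-Cre/ERT2 (Nr3c1IEC-/-), in which a tamoxifen-inducible Cre recombinase is driven by the villin promoter of intestinal epithelium. All animals received tamoxifen by intraperitoneal injection on 5 days in a row, and colonic epithelium was collected on day 7, counted from the first dose, and enriched on a Percoll gradient without culture. The labels give no age or sex and do not say if Cre was present in wild-type mice, so an effect of Cre with tamoxifen and that of receptor loss cannot be told apart.

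Values are normalized reads, that is, gene counts divided by 1 size factor per library, and the recovered reads numbered 10089313 to 12030844 per library. Nr3c1 was at 1120, 967 and 197 in wild-type replicates 1, 2 and 3 and at 145, 123 and 175 in knockout replicates 1, 2 and 3. At the gene that was targeted, the library labelled wild type replicate 3 thus does not match its label. Calls and counts of members are also given with that library left out. The log2 change of Nr3c1 was -2.03 (SE 0.60, limma adjusted p = 0.0372; -2.82 with that library left out), and the two-sided exact permutation p was 0.1, the smallest that 3 against 3 libraries allow. Among epithelial markers Epcam stood at 18255 to 21874 and Krt8 at 116788 to 144280 over the 6 libraries. Of 10 epithelial markers 2 rose and 2 fell, with Krt20 at 14008 to 19392 in wild-type and 30046.5 to 35312 in knockout libraries. The summed level of 6 stem cell markers was 981 to 1232 in wild-type and 429 to 663 in knockout libraries, and 2 of the 5 tested fell. Of 8 colonocyte markers 2 rose and 3 fell, and of 7 goblet cell markers 0 rose and 1 fell. The summed level of 19 immune markers was 676 to 1320 in wild-type and 3445 to 8307 in knockout libraries, and 9 of the 12 tested rose. Among the immune markers Cd3g, Cd8a, Cd79a and Cpa3 were at 0 in 1 to 3 libraries. The summed level of 13 stromal markers was 617 to 1214 in wild-type and 954 to 2919 in knockout libraries, and 2 of the 8 tested rose. The summed level of 12 cell cycle markers was 3684 to 7635 in wild-type and 8645 to 13593 in knockout libraries, and 7 of the 12 rose. The immune, stromal and cell cycle sums were highest in knockout replicate 1. The part of these markers in the results below was not tested beyond 2 fits with a marker level as a covariate. Both levels were higher in each knockout library than in each wild-type library. These 2 fits therefore cannot tell a marker level and the genotype apart. In bulk RNA, a change in the number of cells of a type and a change in RNA per cell cannot be told apart.

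The start regions of 4 members that rose in the knockout libraries (Rps2, Rpsa, Rpl41 and Rps27l) and of Rps27, the core protein that Rps27l resembles, are shown to compare the sequence around the start of genes that rose with that of a gene that did not. They are RefSeq sequences of GRCm38.p6, 5′ to 3′ on the gene's own strand, from 50 bases before to 30 bases from the annotated start onward. Capitals mark TTCCG on either strand (CGGAA on the other), the core letters bound by ETS factors, and TATAAA. The TATAAA marked in Rps2 lies after the annotated start, not before it. The windows are chr17:24720013-24720092 on the plus strand for Rps2, chr9:120127716-120127795 on the plus strand for Rpsa, chr10:128549139-128549218 on the minus strand for Rpl41, chr9:66946036-66946115 on the plus strand for the upstream of 2 starts of Rps27l, and chr3:90213619-90213698 on the minus strand for Rps27.
Rps2: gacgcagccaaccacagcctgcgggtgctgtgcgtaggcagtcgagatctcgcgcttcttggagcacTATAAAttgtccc
Rpsa: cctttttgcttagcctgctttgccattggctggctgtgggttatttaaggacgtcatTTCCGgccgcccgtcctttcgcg
Rpl41: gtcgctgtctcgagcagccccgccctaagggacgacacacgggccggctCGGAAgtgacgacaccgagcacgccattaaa
Rps27l: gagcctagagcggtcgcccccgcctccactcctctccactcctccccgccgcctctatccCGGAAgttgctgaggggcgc
Rps27: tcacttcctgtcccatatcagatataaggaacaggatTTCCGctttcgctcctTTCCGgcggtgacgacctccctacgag

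RefSeq windows of 300 bases (250 before and 50 from the start onward) were matched for 68 members. TTCCG on either strand was in the windows of 58 of the 68 (85.3%), against 32.7% of all 27025 genes with a window and 53.0% of those that were also tested. A C followed by at least 4 pyrimidines stood exactly at the annotated start in 14 members (20.6%), against 3.01% of all and 2.97% of tested genes. Within 10 bases of the start this run was found in 41 members (60.3%), against 34.4% and 37.5%. TATAAA, read on the gene's strand only, was in 7 members (10.3%), against 9.77% of all and 5.86% of tested genes. AAGATGGC, the letters bound by YY1, was on either strand in 6 (8.82%), against 3.19% and 5.21%. TGTTCT, the half-site of the glucocorticoid response element, was on either strand in 11 members (16.2%), below the 21.3% of all genes and close to the 15.1% of tested genes. Each share is a description of the windows and not of binding. The window of each of the 5 genes shown above held TTCCG on either strand, in Rps2 outside the printed stretch, and Rps27 also had the pyrimidine run at its annotated start.

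Most ribosomal protein genes did not pass the test between knockout and wild type. Of the 84 tested members 4 rose and 0 fell, where 15.0% of all genes tested rose and 15.4% fell (limma, adjusted p at most 0.05 over 12837 genes). At an unadjusted limma p of at most 0.05, 6 members were higher and 0 lower, beside 2842 and 2880 of all 12837 genes tested. The quasi-likelihood test of edgeR on the recovered reads gave 4 raised and 0 lowered members, beside 1887 and 2006 of all genes tested. DESeq2 gave 5 and 0 members, beside 2148 and 2016 of all genes tested. These genes are highly expressed, with 79 members at a mean of at least 1000 normalized reads. Of those 79, 4 were called, while 37.8% of the 2263 genes at that level were called in either direction, and 30.5% of all genes tested.

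The log2 changes of the members were small. Their median was 0.12 with quartiles at 0.02 and 0.23, beside a median of 0.01 over all genes tested with quartiles at -0.38 and 0.37. The sign was positive in 64 members and negative in 20. Of 35 small-subunit members 3 rose, and of 49 large-subunit members 1 rose, with medians of 0.11 and 0.13. For the 80 members that were not called, changes ran from -0.31 to 0.56 with a median SE of 0.17. Their 95% intervals reached at most -1.19 and 1.23, and typically from -0.28 to 0.49. Leaving out the library labelled wild type replicate 3 gave a median of 0.06, and leaving out knockout replicate 1 gave -0.04. Weighting libraries by their spread gave 0.01, and scaling to total reads gave 8.5e-05. Scaling to total reads moved the median of all genes from 0.01 to -0.11, and the split of called genes from 1931 raised and 1979 lowered to 1438 and 2533.

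**Figure D1:**
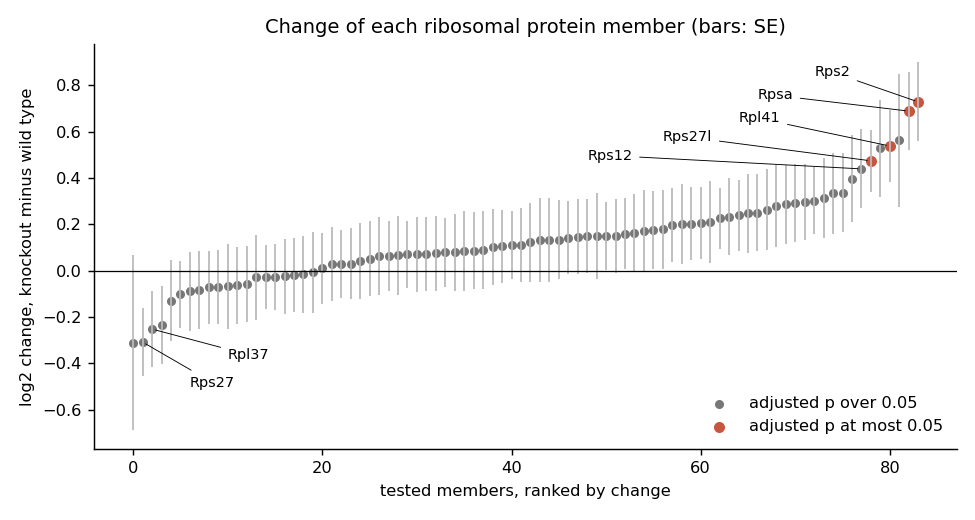
Log2 change (knockout minus wild type, log2(value + 1) scale) of the 84 tested members in rank order, each with its SE as a bar. The 4 members with an adjusted p of at most 0.05 (Rps2, Rpsa, Rpl41 and Rps27l) lie among the highest, and Rps27 and Rpl37 are among the lowest.

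The clearest rise was in Rps2, a small-subunit protein at the channel where mRNA enters the ribosome (Entrez 16898, GRCm38 chromosome 17, 24718121 to 24721927). It was at 11883, 10613 and 10913 in wild-type replicates 1, 2 and 3 and at 22606, 17635.5 and 15713 in knockout replicates 1, 2 and 3. Each knockout library lay above each wild-type library. The means were 11136 ± 664 and 18652 ± 3557 (SD, n = 3 each), a log2 change of 0.73 (SE 0.17, interval 0.33 to 1.12, limma adjusted p = 0.0170).

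Rpsa, the neighbour of Rps2 in the small subunit and also known as the laminin receptor precursor, moved in the same way (Entrez 16785, chromosome 9, 120127766 to 120132369). It was at 11164, 9734 and 9300.2 in wild-type libraries and at 19575, 15544 and 13920.1 in knockout libraries. The means were 10066 ± 975 and 16346 ± 2911, and the log2 change was 0.69 (SE 0.17, interval 0.30 to 1.08, limma adjusted p = 0.0202). Both genes were highest in knockout replicate 1 and lowest in knockout replicate 3 within their group, and even the lowest knockout value was above the highest wild-type value.

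Rpl41, which encodes the smallest protein of the ribosome, rose from 8983 ± 541 to 13141.5 ± 2078 (Entrez 67945, chromosome 10, 128548110 to 128549168). Its wild-type values were 9474, 8404 and 9073 and its knockout values 15262, 13053 and 11109.6. The log2 change was 0.54 (SE 0.15, limma adjusted p = 0.0343). Rps27l, a paralog of Rps27 known as a p53 target (Entrez 67941, chromosome 9, 66944624 to 66949522), rose from 1081 ± 66.5 to 1513 ± 242. It was at 1107, 1005 and 1130.2 in wild-type and at 1775, 1466 and 1297 in knockout libraries, again without overlap. Its log2 change was 0.47 (SE 0.13, limma adjusted p = 0.0332).

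Most of these calls were lost with 1 library or another left out. With knockout replicate 3 left out all 4 stayed called. With the library labelled wild type replicate 3 left out, Rps2 was called, and the adjusted p of Rpsa, Rpl41 and Rps27l was 0.0570, 0.0710 and 0.0610. Without knockout replicate 1, Rps2 and Rpsa were called, and Rpl41 and Rps27l were at 0.0704 and 0.0554. Without knockout replicate 2 the same pair was called, while Rpl41 and Rps27l were at 0.0613 and 0.0574. Without wild type replicate 1 only Rpsa was called, with Rps2 at 0.0531, Rpl41 at 0.0873 and Rps27l at 0.0918, and without wild type replicate 2 none of the 4 was, with limma adjusted p of 0.0744, 0.0807, 0.129 and 0.119 for Rps2, Rpsa, Rpl41 and Rps27l. Over all genes, 970 were raised and 953 lowered with wild type replicate 1 left out, and 997 and 963 with wild type replicate 2 left out, against 1931 and 1979 with all libraries. With the library labelled wild type replicate 3 left out, 1623 were raised and 1605 lowered. Without knockout replicate 1, 2 or 3 the counts were 1578 and 1650, 1782 and 1825, and 1609 and 1706. The log2 changes of the 4 members were positive in all 23 alternatives. They were at 0.48 to 0.84 for Rps2, 0.49 to 0.80 for Rpsa, 0.29 to 0.65 for Rpl41 and 0.18 to 0.58 for Rps27l. All 4 were picked by their rise, and in each all knockout libraries lay above all wild-type libraries. A positive sign with 1 library left out was therefore fixed in advance. The other alternatives reuse the same libraries, so the sign supports nothing. No member was called once a covariate for the immune and stromal markers, or for the cell cycle markers, was in the fit. The covariate of immune and stromal markers left 16 called genes of 12837 and that of cell cycle markers left 300.

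**Figure D2:**
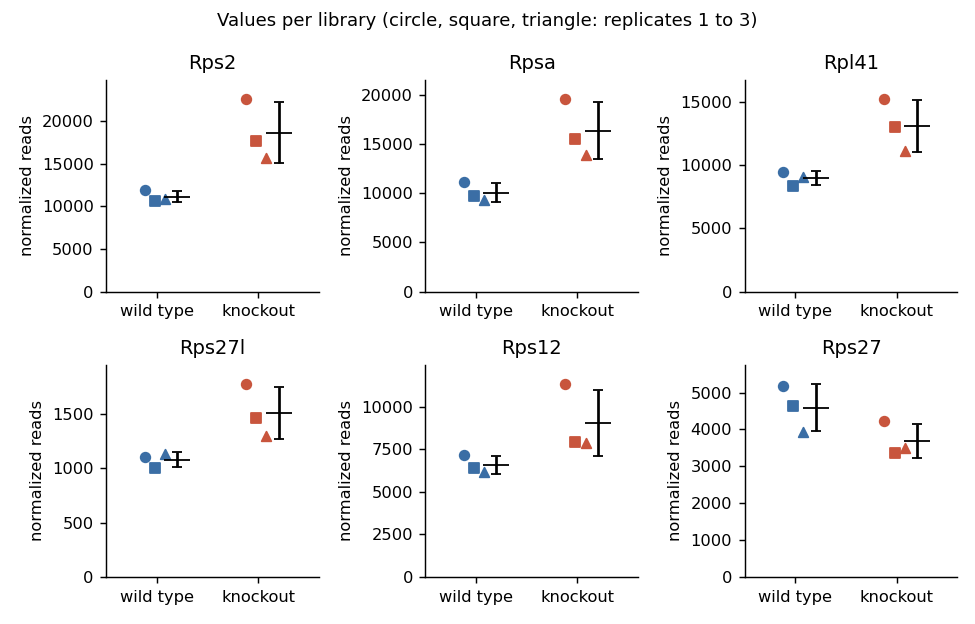
Normalized reads of 6 members per library, with wild type in blue, knockout in red and circles, squares and triangles for replicates 1, 2 and 3, and black bars for the mean and SD of the 3 libraries of a group. The groups do not overlap for Rps2, Rpsa, Rpl41, Rps27l and Rps12, and they overlap for Rps27.

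Just outside the threshold was Rps12, a small-subunit protein, with 7164, 6388 and 6172 in wild-type and 11301, 7929 and 7866 in knockout libraries (log2 change 0.44, SE 0.17, limma adjusted p = 0.0852). Next to it were Rps19bp1, whose product binds Rps19 and regulates Sirt1, at 132 ± 18.9 and 193 ± 46.6 (limma adjusted p = 0.0897), and Rpl12, at the base of the ribosomal stalk, at 4761 ± 577 and 6363 ± 1592 (limma adjusted p = 0.141). DESeq2 on the recovered reads also called Rps12. In 10 of the 84 members all knockout libraries lay above all wild-type libraries, and in 0 all lay below. Over all genes tested the shares were 25.2% and 25.5%. Besides Rps2, Rpsa, Rpl41, Rps27l, Rps12 and Rps19bp1, the 10 were Rpl29, Rpl36al, Rplp0 and Rpl10.

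The stalk proteins recruit the elongation factors to the ribosome. Rplp0, the member with the highest mean, was at 19275, 18435 and 16016 in wild-type and at 26531, 21914 and 19584 in knockout libraries (log2 change 0.33, SE 0.17, limma adjusted p = 0.177). Rplp1 was at 9113 ± 799 and 11463 ± 2391 and Rplp2 at 4195 ± 351 and 4993 ± 929 (limma adjusted p = 0.196 and 0.257). None of the 4 stalk members passed the test, and their intervals included 0, with that of Rplp0 running from -0.07 to 0.74.

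Rpl5 and Rpl11 carry the 5S rRNA into the large subunit and bind Mdm2, the ubiquitin ligase of p53, when ribosome assembly is disturbed. Rpl5 was at 9049, 7838 and 7278 in wild-type and at 9425, 7060 and 6908 in knockout libraries. Rpl11 was at 5948, 5111 and 4970 in wild-type and at 7610, 5494 and 5203 in knockout libraries. The groups overlapped for both (log2 change -0.06 and 0.18, limma adjusted p = 0.812 and 0.452). Mdm2 itself was at 507 ± 9.14 and 522 ± 42.6.

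Rps6, the ribosomal protein phosphorylated by S6 kinases downstream of mTOR, was at 8466, 7347 and 7082 in wild-type and at 10981, 7742 and 7399 in knockout libraries (limma adjusted p = 0.485). Rps27a, made as a fusion with ubiquitin, was at 4686 ± 433 and 5641 ± 1200 (limma adjusted p = 0.274). Both were well above the wild-type range in knockout replicate 1 only, while Rps27a was at 5131 and 4780 in the other knockout libraries against 4393 to 5184 in wild type. Of the 7 tested proteins that line the peptide exit tunnel 0 were called, with log2 changes of -0.23 to 0.28. Of 10 tested genes mutated in Diamond-Blackfan anaemia, an inherited failure of red cell production, 0 were called, with changes of -0.13 to 0.29, the highest being that of Rps19 (4083 ± 558 and 5016 ± 1020). Rpl4, among the 5 members of highest mean, was at 11770 ± 978 and 12211 ± 2185 (interval of the log2 change -0.34 to 0.42).

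The members went up and down together from library to library, in both groups. Of the 84 members 81 were highest in replicate 1 among the wild-type libraries, and 83 were highest in replicate 1 among the knockout libraries. Knockout replicate 1 was the highest of all 6 libraries in 79 members. The library labelled wild type replicate 3 was the lowest wild-type library in 74 members, and knockout replicate 3 was the lowest knockout library in 76. Relative to the wild-type mean, the median member stood at 0.15, -0.03 and -0.12 (log2) in wild-type replicates 1, 2 and 3 and at 0.43, 0.02 and -0.08 in knockout replicates 1, 2 and 3. The median member therefore differed more among the knockout libraries than between knockout replicates 2 and 3 and the wild-type libraries.

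**Figure D3:**
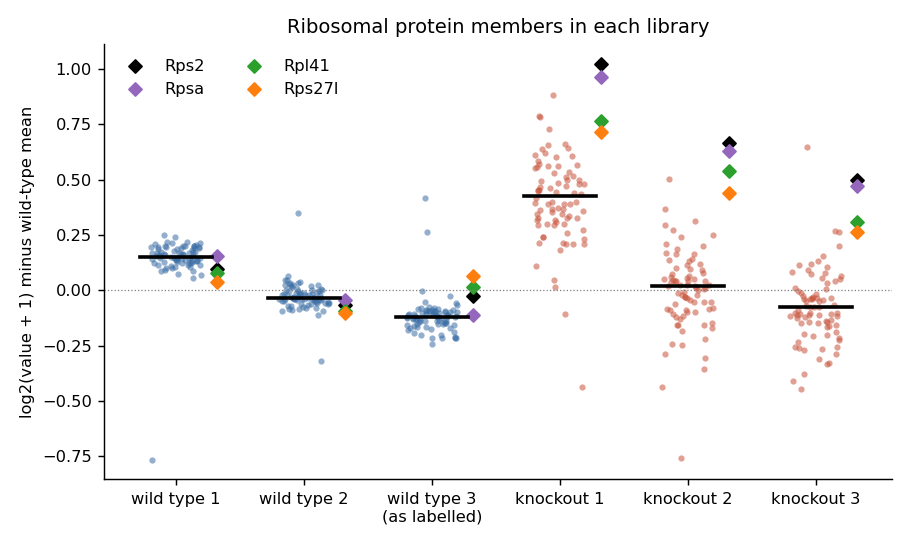
Log2(value + 1) of the 84 tested members minus the mean of each over the wild-type libraries, per library, with a black line at the median of all members and diamonds for Rps2, Rpsa, Rpl41 and Rps27l. The median is highest in knockout replicate 1, at 0.43, and the diamonds of Rps2 and Rpsa lie far above the median in each knockout library.

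The same order was seen in the share of all recovered reads that fell on the members. It was 4.62%, 3.95% and 3.75% in wild-type replicates 1, 2 and 3 and 4.96%, 3.99% and 3.77% in knockout replicates 1, 2 and 3. The groups overlapped, and the difference of the means was 0.14 percentage points. It was -0.22 with knockout replicate 1 left out and -0.04 with the library labelled wild type replicate 3 left out. Within the knockout libraries this share had the same order as the summed cell cycle markers and the summed immune markers. The summed stromal markers had another order. Within the wild-type libraries neither the cell cycle nor the immune sum had the order of the share. There wild type replicate 3 had the highest value of each of these sums and the lowest share. Sprr2a2 alone took 3.85% to 7.83% of the reads in the knockout libraries, also in the order of the share. So few libraries can have the same order without a link, and no link with the share was tested.

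Rps2, Rpsa, Rpl41 and Rps27l were then read against the pool of ribosomal protein reads, which leaves out the up and down that all members share. As these 4 were singled out by their rise, the following values describe it and support nothing. Together they took 6.80%, 6.79% and 7.41% of the members' reads in wild-type replicates 1, 2 and 3 and 9.65%, 10.2% and 9.70% in knockout replicates 1, 2 and 3. Knockout replicate 1, which had the highest level of nearly all members, had the lowest of the knockout shares. The rest of the members took 4.31%, 3.68% and 3.47% of all reads in wild-type libraries and 4.48%, 3.59% and 3.41% in knockout libraries. The reads of the small subunit over those of the large subunit were 0.670, 0.661 and 0.669 in wild-type and 0.700, 0.684 and 0.695 in knockout libraries. Without the 4 members the ratios were 0.608, 0.599 and 0.605 and 0.604, 0.587 and 0.600, and the groups overlapped.

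**Figure D4:**
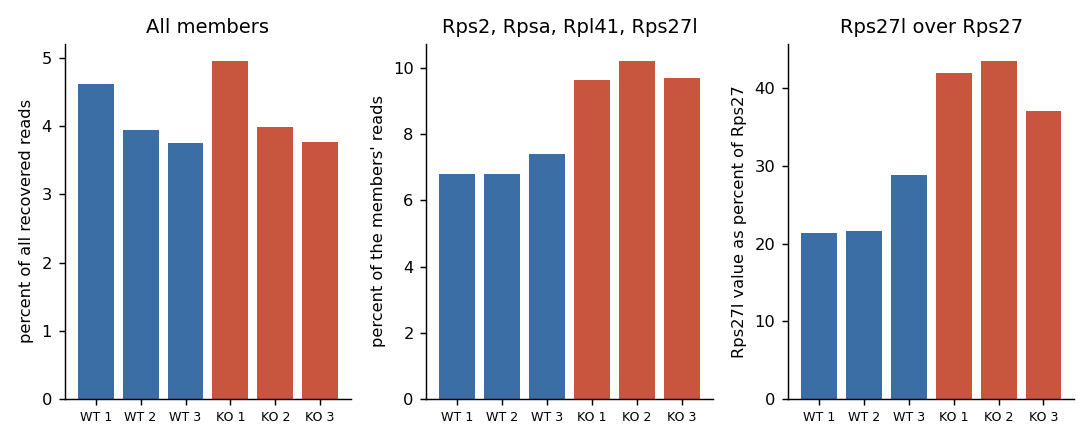
Per library, wild type in blue and knockout in red: the members' share of all recovered reads (left), the share of the members' reads on Rps2, Rpsa, Rpl41 and Rps27l (middle), and Rps27l as a percentage of Rps27 (right). The left bars overlap between groups, at 3.75% to 4.96%, while the middle bars are at most 7.41% in wild type and at least 9.65% in knockout.

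With each library scaled to the members' total, a setting chosen after the data were seen, 2 members rose and 0 fell, where 6.72% of all genes rose and 11.2% fell. Those called were Rps2 (log2 change 0.57, limma adjusted p = 0.0394) and Rpsa (0.53, limma adjusted p = 0.0490). With the library labelled wild type replicate 3 also left out, 0 members were called, with Rps2 at 0.62 and Rpsa at 0.53 (limma adjusted p = 0.0572 and 0.0862). Rps2 made up 2.40%, 2.42% and 2.66% of the pool in wild-type and 3.68%, 3.78% and 3.62% in knockout libraries. Rpsa made up 2.26%, 2.22% and 2.27% in wild-type and 3.19%, 3.33% and 3.21% in knockout libraries. Within each group these shares lay close together. On this scale 17 members had all knockout libraries above all wild-type libraries and 34 had all below, beside 13.0% and 26.6% of all genes. Since the shares of a pool sum to a fixed total, a rise of some members and a fall of others cannot be told apart on this scale.

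The members with the lowest pool shares in the knockout, relative to wild type, were Rps27, Rpl37 and Rpl17 among those without an overlap, named after their values were seen. Rps27 made up 1.05%, 1.06% and 0.954% in wild-type and 0.689%, 0.721% and 0.807% in knockout libraries (log2 change on this scale -0.47, SE 0.17, limma adjusted p = 0.0867). Rpl37 made up 0.761%, 0.779% and 0.697% and then 0.559%, 0.557% and 0.563% (limma adjusted p = 0.115). Rpl17, at the exit tunnel, made up 1.56%, 1.43% and 1.37% and then 1.07%, 1.13% and 1.13% (limma adjusted p = 0.130). None of these 3 passed the test, and on the scale of the deposited values their groups overlapped, as with Rps27 at 5191, 4644 and 3918 in wild-type and 4226, 3366 and 3499 in knockout libraries (limma adjusted p = 0.144).

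Paralogs were compared with the core protein that each resembles, since a ratio within a library does not depend on its scaling. Rps27l stood at 21.3%, 21.6% and 28.8% of Rps27 in wild-type replicates 1, 2 and 3 and at 42.0%, 43.6% and 37.1% in knockout replicates 1, 2 and 3. As Rps27l was singled out above by its rise, this ratio describes that rise and supports nothing. Per kilobase of transcript Rps27l averaged 2255 normalized reads over the 6 libraries and Rps27 12002. Rps27l rose on the deposited scale, while the lower mean of Rps27 was not called (limma adjusted p = 0.144) and its groups overlapped. The library labelled wild type replicate 3, where Nr3c1 was low, had the highest wild-type ratio. That library also had the highest wild-type sums of immune, stromal and cell cycle markers, and no link with the ratio was tested.

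Rpl22l1, which can take the place of Rpl22 in the large subunit, was compared in the same way. It stood at 55.4%, 49.8% and 56.3% of Rpl22 in wild-type and at 55.6%, 56.4% and 55.3% in knockout libraries. The log2 changes were 0.06 for Rpl22l1 and 0.01 for Rpl22, with intervals of -0.29 to 0.42 and -0.35 to 0.37. Rpl7l1 was at 628 ± 42.7 and 806 ± 184 (limma adjusted p = 0.166) and passed the test when knockout replicate 3 was left out (log2 change 0.51, limma adjusted p = 0.0381). It stood at 6.16% to 7.28% of Rpl7 in wild-type and at 6.95% to 7.95% in knockout libraries. Rpl36al and Rps4l were the least abundant of the tested members, with means of 17.6 ± 3.65 and 26.3 ± 4.01 and of 128 ± 50 and 101 ± 38.5, and neither was called.

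Rps23rg1 and Rpl32l, retroposed or duplicate copies by name, followed their core genes closely. Rps23rg1 was at 41.0% to 43.3% of Rps23 and Rpl32l at 9.79% to 10.8% of Rpl32 over the 6 libraries. Among the rows left out as pseudogenes, Rpl31-ps12 held 1295 to 1782 normalized reads and Rps15a-ps6 1003 to 1467. Reads of near-identical copies may have been shared out or dropped by the counting, so the levels of members with such copies are uncertain. The 5 members that were too low to be tested were Rpl26, Rpl37rt, Rpl39l, Rpl3l and Rpl10l. Rpl26 encodes a core protein at the exit tunnel, and its row held 3, 1 and 5 reads in wild-type and 15, 12 and 9 in knockout libraries. Rpl10l had 0 reads in each library, and Rpl39l and Rpl3l had 1 read each in all libraries together.

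Per kilobase of transcript, the 82 tested members with an annotated length had a median of 7159 normalized reads over the 6 libraries, with quartiles at 5154 and 9215. Rpl41 (21734), Rplp1 (20617), Rps12 (16964), Rps2 (15482) and Rplp0 (14943) were the highest, and Rpl36al, at 41.6, was the lowest. These levels depend on the transcript taken as a gene's length. Rps2, Rpl41, Rps12 and Rplp0 were among the 10 members in which all knockout libraries lay above all wild-type libraries. Rpl36al and Rps19bp1, the latter at 194, were among them too, so the 10 included members of both high and low level.

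Other genes of translation were read from the same fit, and their counts stand beside the 15.0% of all genes tested that rose and the 15.4% that fell. With the immune and stromal covariate 0 genes of these lists were called, and with the cell cycle covariate 2 growth control genes rose and 1 biogenesis gene fell. As said above, these fits cannot tell a marker level and the genotype apart. Of the ribosomal proteins whose symbols are not Rpl or Rps, Fau was at 6155 ± 498 and 5195 ± 698 and Rack1 at 8473 ± 1039 and 8299 ± 1772, and neither was called (limma adjusted p = 0.200 and 0.866). Of 77 tested mitochondrial ribosomal proteins 6 rose and 3 fell, with a median log2 change of 0.06. Mrpl33 rose from 312 ± 22.9 to 466 ± 26.4, and Mrps31 fell from 436 ± 47.5 to 267 ± 33.5 (limma adjusted p = 0.00928 and 0.0103). Mrps35 and Mrps9 also fell. The raised numbered 1 when wild type replicate 1 or 2 was left out, 2 to 4 when the library labelled wild type replicate 3 or knockout replicate 1 or 2 was, and 6 with knockout replicate 3 left out. The lowered numbered 0 to 3.

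Of 38 translation initiation factors 9 rose and 0 fell, with a median of 0.26. Eif2s2, a subunit of the factor that brings the initiator tRNA, rose from 4402 ± 914 to 10037.5 ± 1266 (log2 change 1.20, limma adjusted p = 0.00353). Eif2b2 and Eif2b5, subunits of its exchange factor, rose from 434 ± 21.8 to 667 ± 91.4 and from 624 ± 22.1 to 920 ± 122. Leaving out wild type replicate 1 or 2 gave 2 raised factors, and leaving out any of the other libraries gave 6 to 11. With the library labelled wild type replicate 3 left out, 7 initiation factors rose and 1 fell. The median was -0.03 with the immune and stromal covariate and 0.05 with the cell cycle covariate. Of 8 elongation factors Eif5a rose, from 4292 ± 400 to 7169 ± 2032 (limma adjusted p = 0.0326), and 0 fell. This call was lost with any of the wild-type libraries left out. Eef1a1 was at 68950 ± 5937 and 72889 ± 11942, and Eef2 at 31616.5 ± 4375 and 29902 ± 2309.

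Of 20 mRNAs known for the same pyrimidine start, a list that shares genes with the elongation and initiation factors and holds Fau and Rack1, 2 rose and 0 fell, with a median of -0.02. They were Npm1, a nucleolar protein, from 2437 ± 92.8 to 4488 ± 1830, and Ppia, from 8869 ± 1141 to 13512 ± 1505 (limma adjusted p = 0.0470 and 0.0229), and neither was called with wild type replicate 1 or 2 left out. With the library labelled wild type replicate 3 left out, 1 of the 20 rose and 1 fell, and DESeq2 gave 4 raised. Tpt1, of the same list, was at 20107.5 ± 1410 and 18795 ± 1713.

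Of 63 genes of ribosome biogenesis 4 rose and 2 fell, and the median was 0.41. Among them Nhp2, a protein of the box H/ACA particles that modify rRNA, rose from 299.9 ± 43.1 to 621 ± 274, and Utp20, of the small-subunit processome, fell from 1255 ± 75.1 to 575 ± 80.8 (limma adjusted p = 0.0351 and 0.00129). Rrp12, Noc4l and Pno1 also rose, and Sbds, which frees the large subunit for joining, fell from 1427 ± 126 to 975 ± 44.3. The raised numbered 0 with wild type replicate 1 or 2 left out, 1 with the library labelled wild type replicate 3 left out, 6 with knockout replicate 2 left out and 11 with knockout replicate 3 left out. DESeq2 gave 14 raised and 2 lowered genes, and edgeR 4 and 2. The median was 0.19 with knockout replicate 1 left out, -0.14 with the immune and stromal covariate and -0.04 with the cell cycle covariate. Of 19 genes of RNA polymerase I and its factors, which make rRNA, 2 rose (Polr2l and Cd3eap) and 0 fell, and 0 rose with wild type replicate 1 or 2 left out and 1 with the library labelled wild type replicate 3 left out.

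Of 22 genes that control ribosome synthesis 3 rose and 3 fell, with a median of -0.21. Max, the partner of Myc, rose from 1059.5 ± 203 to 1686 ± 422 (limma adjusted p = 0.0462). Eif4ebp1, a brake on cap-dependent initiation that mTOR inactivates, rose from 163 ± 21.3 to 632 ± 151, and Ddit4, an inhibitor of mTOR, from 647 ± 170 to 2372 ± 56.7. Rheb, the activator of mTOR, fell from 900.4 ± 116 to 616 ± 74.6, Rptor, its scaffold, from 620.4 ± 62.2 to 464 ± 38.2, and Pdcd4, an inhibitor of the initiation helicase, from 1216 ± 214 to 475 ± 239. The limma adjusted p of these 5 ranged from 0.000819 to 0.0378. Mtor was at 652 ± 17.4 and 581 ± 53.4, and Myc at 147 ± 6.29 and 170.1 ± 48.9, and neither was called. With wild type replicate 1 or 2 left out, 2 of the 22 rose and 0 fell. With the library labelled wild type replicate 3 left out, 3 rose and 2 fell.

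**Figure D5:**
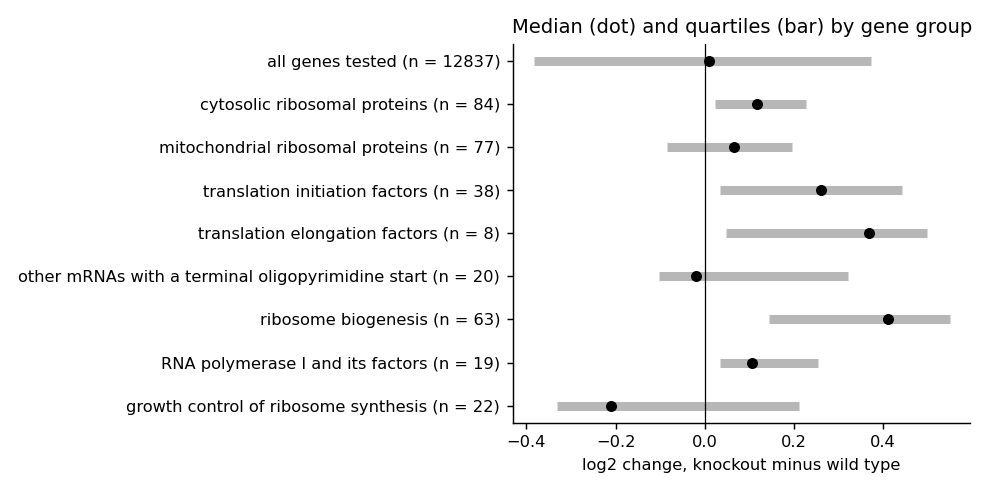
Median (dot) and lower to upper quartile (bar) of the log2 change, knockout minus wild type, for the members and for the lists of translation genes beside all genes tested, with the number of tested genes in brackets. The members lie close to 0 with a narrow bar from 0.02 to 0.23, against -0.38 to 0.37 for all genes.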

How the data were processed

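The deposited table, a normalized signal per gene and library, was made by the authors with FastQC, TopHat, DESeq2 and build mm10, which the submitters' processing notes name without versions. Which program counted the reads, and on which annotation, is not given in the sources used here. All values (100%) were whole multiples of 1 step per column within 0.001, which is how counts over a size factor look, and division by that step gave back the reads. Libraries were non-stranded, so overlapping antisense genes cannot be told apart. Symbols came from the RefSeq table of GRCm38.p6 for 23666 of 23725 Entrez numbers.

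Differences were tested on the whole table with limma 3.58.1 in R 4.3.3 (intensity-dependent prior) on log2(value + 1), for genes that reached 10 in 3 or more libraries, two-sided, with Benjamini-Hochberg adjustment over 12837 genes and a threshold of 0.05. Log2 changes are knockout minus wild type on that scale. Intervals are 95% intervals of that fit, unadjusted. edgeR 4.0.16 and DESeq2 1.42.0 were run on the recovered reads as alternatives. Transcript lengths are from GENCODE M21. The test was also run on simulated data in which genes varied independently of each other. That run does not cover genes that move together from library to library, as the members did. The rule for names took the called members, the 3 nearest to the threshold on each side, the 5 of highest and 3 of lowest mean, the stalk and 5S proteins, paralogs with their core proteins, Rps6, Rps27a and, of each other list, the 3 raised and 3 lowered of smallest adjusted p. Names outside it were chosen after their values were seen. The members and lists were chosen with earlier results of these data known. The labels do not say that libraries came from separate animals, so p-values measure only the spread between these libraries. No replicate pair agreed within sampling noise (chi-square per degree of freedom 14.7 to 56.8). Values of some listed genes are not reported here.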

Additional observations from a re-analysis of the deposited data

How the results depend on the processing

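The count of 4 raised members was 2 with quantile normalization, with scaling to total reads, with scaling to total reads outside the members and with scaling to the members' total, and 0 with either marker covariate. It ranged from 0 to 5 with 1 library left out, and 0 members fell under any of the 23 alternatives. The median log2 change of the members, 0.12, was -0.0112 with quantile normalization, -0.0582 with the immune and stromal covariate, -0.0792 with the cell cycle covariate and -0.0426 with scaling to the members' total, a setting chosen after seeing the data. With that scaling and the library labelled wild type replicate 3 left out, also chosen after seeing the data, 0 members were raised and the median was -0.0368. Library weights gave 0.0101. With 1 library left out it ranged from -0.0444 to 0.218. The difference in the members' share of reads, 0.14 percentage points, ranged from -0.222 to 0.393 with 1 library left out, and was -0.0429 with the library labelled wild type replicate 3 left out. The log2 change of Nr3c1 ranged from -2.82 to -1.57 with 1 library left out, and its limma adjusted p was 0.0631 to 0.125 with any library but the one labelled wild type replicate 3 left out. The cause of these shifts was not tested. No paired analysis was possible because the replicate numbers follow the order of deposit and tie no library of 1 group to one of the other. With 3 libraries a group, the typical 95% interval of a member that was not called ran from -0.28 to 0.49.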
